A study of Mus musculus with 4 samples.

Results

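The constitutive proteasome genes were taken from the deposited table as every row whose symbol is Psm followed by a letter from a to g and a number, leaving out the interferon-inducible Psmb8, Psmb9 and Psmb10. The rule gave 44 of the 20555 genes in the table: 15 core subunits, 17 subunits of the regulatory cap, 5 genes for activators and the regulator PI31, and 7 assembly chaperones. The RNA came from whole mammary tumours of mice with PyMT, the polyoma virus middle T antigen, an oncogene that drives mammary tumours. Control-PyMT (2 libraries) is labelled with the genotype PyMT alone. MYC-PyMT (2 libraries) is labelled S100a8-creRosa26-LSL-MYCPyMT: PyMT together with a Cre recombinase driven from S100a8, a gene that neutrophils express strongly, and, at Rosa26, a MYC allele that a floxed stop cassette (LSL) keeps silent until Cre acts. Both groups thus carry PyMT, and the labels do not give the age of the mice, their strain, whether tumours were pooled, or which tumour cells expressed Cre. They also leave unsaid whether the libraries of a group are from separate mice, and p-values here measure library spread that may be technical. In bulk tumour RNA, fewer cells of a type and less RNA per cell cannot be told apart.

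The proteasome is the protease that breaks down proteins marked with ubiquitin. Its core is a barrel of alpha rings outside and beta rings inside, with the active sites facing the hollow of the barrel. A regulatory cap binds the ends of the core: its base holds a ring of ATPases that unfold substrates and push them into the core, and its lid removes the ubiquitin chain. Other activators can take the place of the cap, and dedicated chaperones, which are not part of the finished particle, build the core and the base. In cells exposed to interferon, the catalytic beta subunits are exchanged for inducible ones that shift cleavage towards peptides for antigen presentation. Tumour cells depend on the proteasome to clear surplus and misfolded proteins.

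Most proteasome genes were higher in MYC-PyMT tumours, by modest amounts. By limma with Benjamini-Hochberg adjustment over all genes tested, at an adjusted p under 0.05, 33 of the 44 rose, 1 fell and 10 did not pass. Over the 16725 genes tested, 23.3% were called higher and 24.6% lower. The median log2 change of the 44 was 0.66, or 1.58-fold, against -0.02 over all genes tested. The assembly chaperones Psmg3 and Psmg1 had the largest changes (1.86 and 1.67 on the log2 scale), and the other two Psmg chaperones rose by 1.25 and 1.54. Also above 2-fold were the low-level Psma8, the core subunits Psmb5, Psma7 and Psmb3 and the activator Psme3. The activator subunit Psme1 was the member that fell. By role, 13 of 15 core genes, 14 of 17 cap genes, 1 of 5 activator and PI31 genes and 5 of 7 chaperones rose. All 44 passed the level filter of at least 10 scaled counts in at least 2 libraries, but Psma8 did so through the MYC-PyMT libraries alone; without it 32 of 43 rose.

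In 39 of the 44 genes both MYC-PyMT libraries stood above both Control-PyMT libraries, and in 2 (Psme1 and Psme2) both stood below. Over all genes tested these shares were 37.0% and 38.7%. The Control-PyMT libraries also differed from each other: replicate 1 was above replicate 2 in 41 of the 44, by a median of 0.32 on the log2 scale, against 9324 of the 16725 genes tested and a median of 0.066 over them. The number that rose moved with the library left out: 34 without Control-PyMT replicate 1, 17 without Control-PyMT replicate 2, 18 without MYC-PyMT replicate 1 and 13 without MYC-PyMT replicate 2. The background shares of genes called higher were then 23.2%, 21.1%, 17.6% and 15.7%. The change varied with transcript length (Spearman's correlation -0.23 across genes, which are not independent replicates, with short transcripts on the higher side). With each library's trend with length removed, 19 members were called higher (background 21.5%) and their median log2 change was 0.46. Of all genes tested, the share called lower was 18.3%, 17.5%, 21.1% and 20.0% without each library in the same order, and 23.8% with the length trend removed. Without limma's variance trend 16 members were called higher, beside 19.6% of genes higher and 21.9% lower. Upper-quartile scaling gave 24 members (background 20.4%), edgeR 32 (22.1%), DESeq2 33 (21.9%) and a threshold of 0.10 gave 36 (27.5%). A total of 11 of the 33 kept their call under all 16 alternatives: Psma7, Psmb3, Psmb5, Psmd3, Psmd7, Psmd14, Psme3 and Psmg1 to Psmg4.

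**Figure D1:**
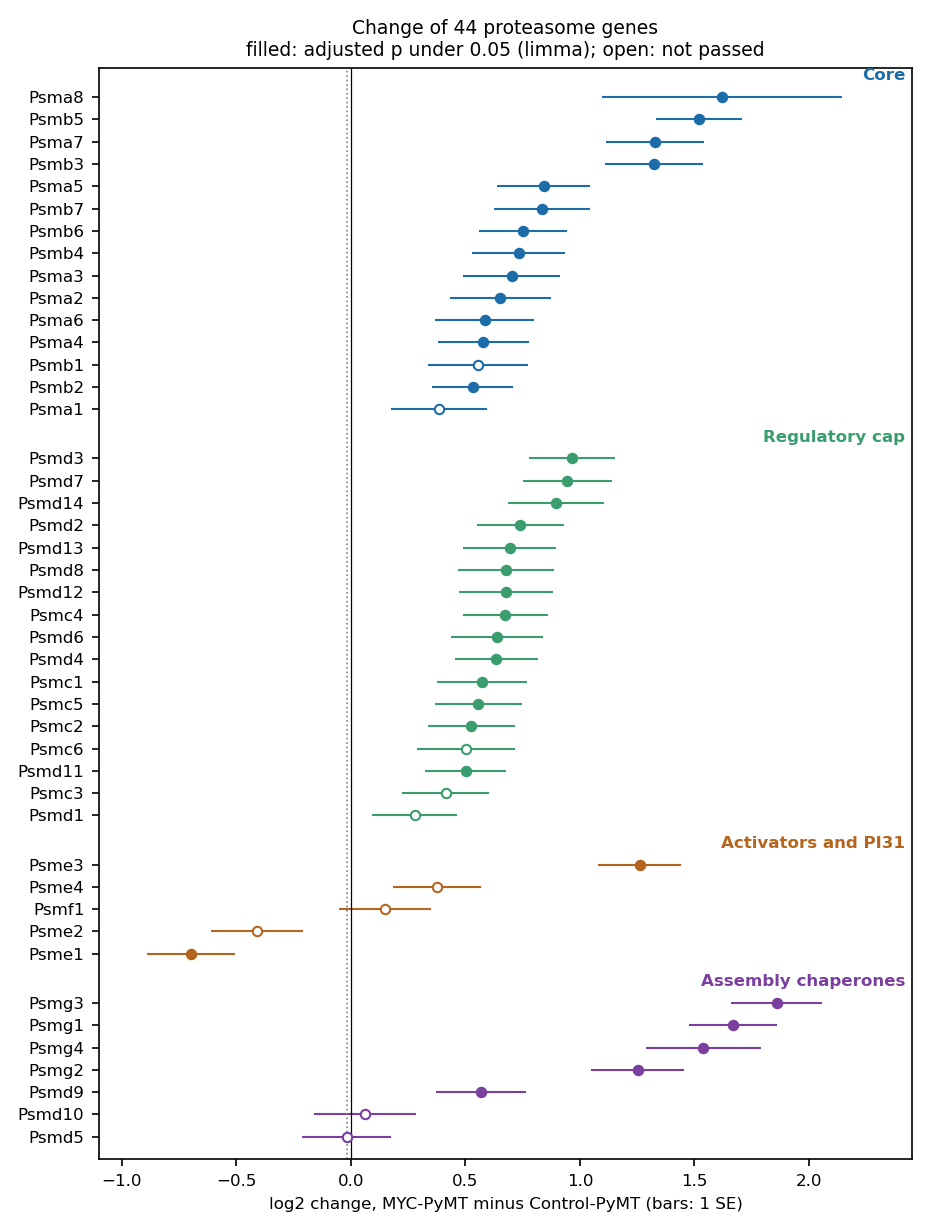
Log2 change of each of the 44 proteasome genes, MYC-PyMT minus Control-PyMT, with bars of 1 SE from limma (n = 2 libraries a group), grouped by role. Filled points passed at an adjusted p under 0.05 and open points did not; the solid line marks 0 and the dotted line the median of all genes tested, -0.02. Core and cap genes lie to the right of 0 from 0.28 to 1.62, the 4 Psmg chaperones span 1.25 to 1.86, and Psme1 and Psme2 lie to the left of 0.

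The alpha rings form the gate through which substrates enter the core. Of the 7 ubiquitous alpha subunits 6 rose, with log2 changes of 0.58 to 1.33. Psma7 (ENSMUSG00000027566.14, chromosome 2, 180036374 to 180042433, minus strand) had scaled counts of 10910.0 and 8176 in replicates 1 and 2 of Control-PyMT and of 22021 and 25526 in those of MYC-PyMT. Both MYC-PyMT libraries lay above both Control-PyMT libraries, and Psma7 rose 2.49-fold as a ratio of means (log2 change 1.33, SE 0.21, limma adjusted p = 8.17e-04). Per kb of transcript it was also the most abundant core subunit in all 4 libraries.

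The other alpha subunits changed less. Psma5 had 2392 and 1740.4 scaled counts in the controls and 3648 and 3664 in the MYC-PyMT libraries and rose (log2 change 0.84, SE 0.20, limma adjusted p = 0.00749). Psma3 had 4344 and 3111 scaled counts in the controls and 5561 and 6434 in the MYC-PyMT libraries (log2 change 0.70, limma adjusted p = 0.0205). Psma2 had 8097 and 5624 scaled counts in the controls and 9786 and 11482 in the MYC-PyMT libraries (log2 change 0.65, limma adjusted p = 0.0336). In each the groups did not overlap, and the controls differed from each other more than the MYC-PyMT libraries did. Psma6 had 7409 and 5089 scaled counts in the controls and 8856 and 9575 in the MYC-PyMT libraries, with a log2 change of 0.58 (limma adjusted p = 0.048). Psma4, whose amino-terminal tail is known to hold the gate shut, had 6023 and 4579 scaled counts in the controls and 7572 and 8115 in the MYC-PyMT libraries. In Psma6 and Psma4 replicate 1 of the controls again stood above replicate 2, and Psma4 also passed (log2 change 0.58, limma adjusted p = 0.0358). Psma1 had 7615 and 5390.1 scaled counts in the controls and 8349 and 8366 in the MYC-PyMT libraries; its log2 change of 0.38 did not pass (limma adjusted p = 0.157), and the Control-PyMT replicate 1 value lay close to those of MYC-PyMT. Without Control-PyMT replicate 1 the change of Psma1 was 0.63 and passed (limma adjusted p = 0.025). Psma8, an alpha subunit of male germ cells that replaces Psma7 there, was close to the lower limit of the data, at 5.61 and 4.25 scaled counts in the controls and 22.1 and 13.2 in the MYC-PyMT libraries (log2 change 1.62, SE 0.52, limma adjusted p = 0.0281). That call ended without either control library and with DESeq2 on recovered reads, and without either MYC-PyMT library Psma8 was under the level filter.

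The inner beta rings hold the active sites in Psmb5 (chymotrypsin-like cleavage), Psmb6 (caspase-like) and Psmb7 (trypsin-like). Psmb5 (ENSMUSG00000022193.6, chromosome 14, 54614119 to 54618022, minus strand) had scaled counts of 1409 and 1228 in replicates 1 and 2 of Control-PyMT and of 3558 and 4010.0 in those of MYC-PyMT. The MYC-PyMT libraries were well above those of Control-PyMT, which lay close together, and Psmb5 rose 2.87-fold, from 1319 ± 128 to 3784 ± 319 (SD, n = 2 each; log2 change 1.52, SE 0.19, limma adjusted p = 1.84e-04). Psmb6 had 7364 and 6438 scaled counts in the controls and 10567 and 12717 in the MYC-PyMT libraries (log2 change 0.75, SE 0.19, limma adjusted p = 0.00999). Psmb7 had 4452 and 3163 scaled counts in the controls and 6404 and 6988 in the MYC-PyMT libraries (log2 change 0.83, SE 0.21, limma adjusted p = 0.00883). In both genes the groups did not overlap, but both calls ended with the length trend removed. That of Psmb6 also ended without MYC-PyMT replicate 2. The change of Psmb5 was larger than those of the other catalytic subunits, a difference between genes that was not tested. Control-PyMT had little Psmb5 for a core subunit: per kb of transcript it stood at 1568 and 1366 scaled counts, against core medians of 4464 and 3176. In MYC-PyMT it stood at 3958 and 4461, against core medians of 5880.4 and 6670.1.

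The promoter of Psmb5, the catalytic gene that changed most, is shown with the match to TGACNNNGC, the core of the antioxidant response element, in capitals. This element is bound by NFE2L1 and NFE2L2, transcription factors that raise proteasome genes when the proteasome is inhibited or cells are under oxidative stress. The window runs 250 bases before to 50 after the start site (RefSeq, GRCm38.p6, chr14:54617946-54618245, minus strand, written 5′ to 3′), and the match begins at position -47.
Psmb5: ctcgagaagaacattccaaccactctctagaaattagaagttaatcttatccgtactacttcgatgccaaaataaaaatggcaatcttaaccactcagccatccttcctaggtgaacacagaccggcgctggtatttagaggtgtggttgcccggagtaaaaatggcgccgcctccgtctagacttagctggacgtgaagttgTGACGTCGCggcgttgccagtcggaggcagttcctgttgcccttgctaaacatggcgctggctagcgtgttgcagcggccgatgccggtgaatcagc
A match describes these letters and does not show that a factor binds there.

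Psmb1 to Psmb4 are beta subunits without an active site. Psmb3 had 2333 and 1720.0 scaled counts in the controls and 4477 and 5612 in the MYC-PyMT libraries, and rose 2.49-fold (log2 change 1.32, SE 0.21, limma adjusted p = 8.50e-04). Psmb4 had 5154 and 3832 scaled counts in the controls and 6998 and 7802 in the MYC-PyMT libraries (log2 change 0.73, SE 0.20, limma adjusted p = 0.0142). Psmb2 had 4213 and 3829.8 scaled counts in the controls and 5824 and 5794 in the MYC-PyMT libraries (log2 change 0.53, SE 0.18, limma adjusted p = 0.0319). In each of these the MYC-PyMT libraries lay above both controls. Psmb1 had 8038 and 5472 scaled counts in the controls and 9624 and 9865 in the MYC-PyMT libraries, and its log2 change of 0.55 did not pass (limma adjusted p = 0.0588). It passed without Control-PyMT replicate 1 (0.83, adjusted p = 0.0108 by limma) and with DESeq2 on the recovered reads (0.54, adjusted p = 0.0491). Leaving out single libraries moved the number of core genes that rose, 13 of 15, to 14 without Control-PyMT replicate 1, 6 without Control-PyMT replicate 2, 8 without MYC-PyMT replicate 1 and 5 without MYC-PyMT replicate 2.

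**Figure D2:**
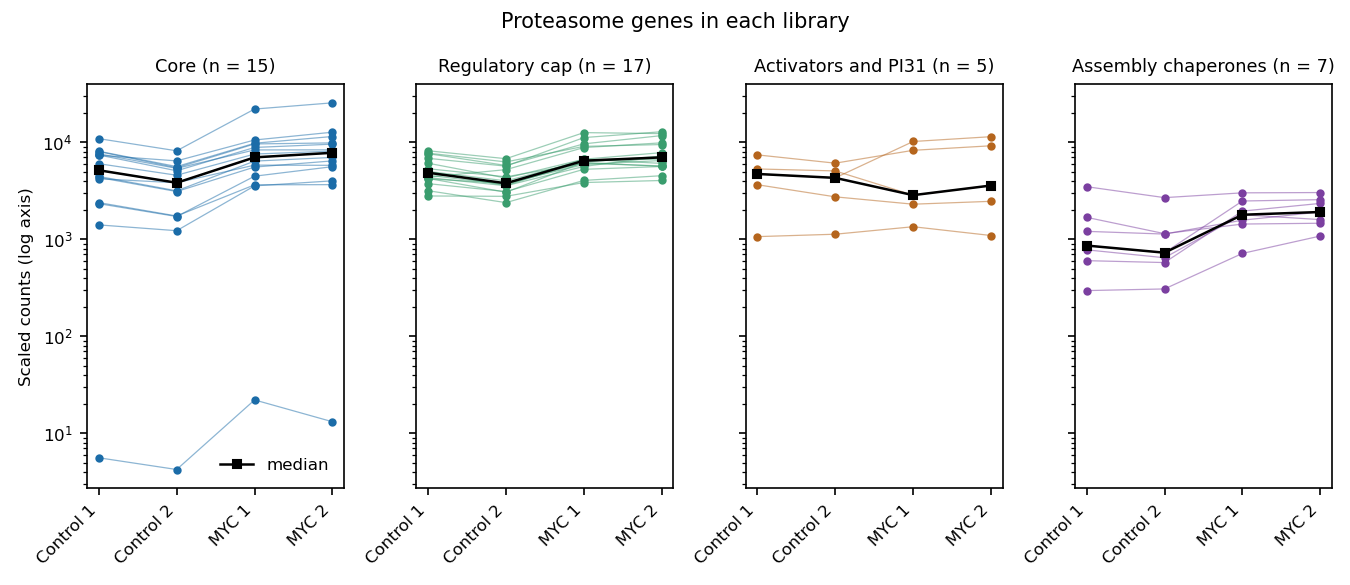
Scaled counts of the 44 genes in the 4 libraries on a log axis, by role; thin lines join the values of 1 gene and black squares are the median of the role in that library. Core and cap medians are higher in both MYC-PyMT libraries than in both Control-PyMT libraries, replicate 1 of Control-PyMT stands above replicate 2 for most genes, and Psma8 lies far below the other core genes.

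The constitutive catalytic subunits were set beside their inducible counterparts, which are not among the 44. Psmb8, which takes the place of Psmb5, had 3832 and 3149 scaled counts in the controls and 515 and 603 in the MYC-PyMT libraries (log2 change -2.64). Psmb9, the counterpart of Psmb6, had 1107 and 1120.3 scaled counts in the controls and 169 and 167 in the MYC-PyMT libraries (-2.72). Psmb10, that of Psmb7, had 847 and 1301 scaled counts in the controls and 621 and 868 in the MYC-PyMT libraries (-0.52, limma adjusted p = 0.133, not passed). Per kb of transcript, Psmb5 made up 40.0% and 41.4% of the Psmb5 and Psmb8 RNA in replicates 1 and 2 of Control-PyMT and 92.6% and 92.3% in those of MYC-PyMT. The inducible gene was thus the more abundant of this pair in both Control-PyMT libraries and the constitutive gene in both MYC-PyMT libraries. Psmb6 was 91.8% and 90.7% of its pair in the controls and 99.1% and 99.2% in MYC-PyMT. For Psmb7 the shares were 85.6% and 73.3%, then 92.1% and 90.1%. With 2 libraries a group an exact test of such a share cannot go below p = 0.33, so none was run. The 10 interferon response genes of a marker list all fell, with summed levels of 31877 and 30539.8 scaled counts in the controls and 3203 and 4489 in the MYC-PyMT libraries, and none was at 0. All 10 T and NK cell markers fell as well (summed levels 512 and 585 against 40.3 and 38.5). Over all genes tested, 24.6% were called lower. The part of either list in the shares of the constitutive genes was not tested.

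**Figure D3:**
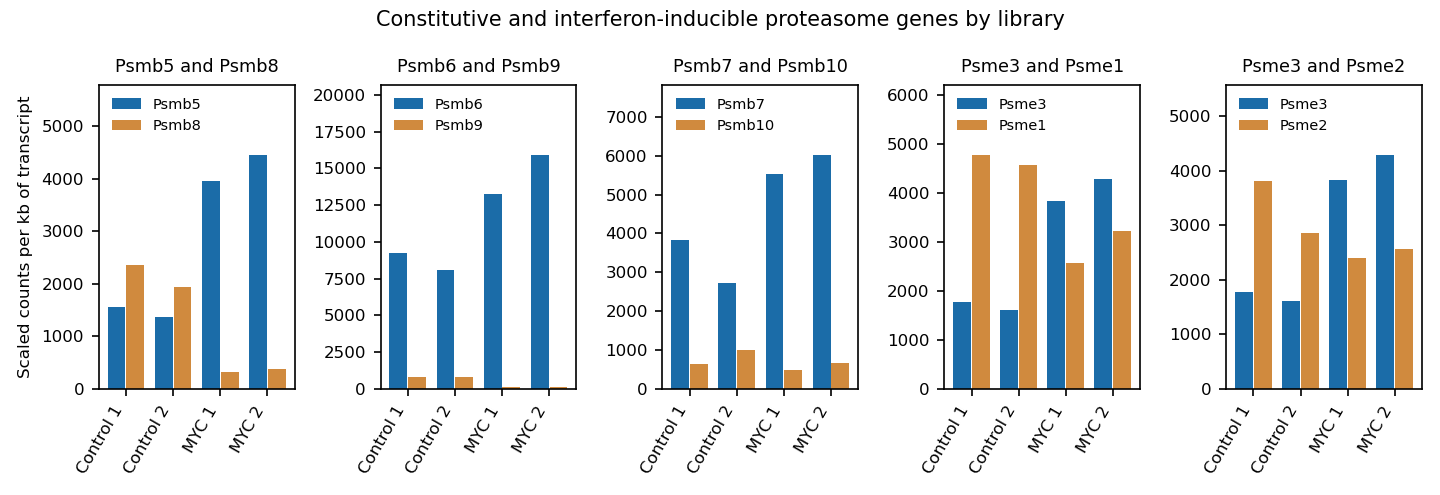
Scaled counts per kb of transcript in each of the 4 libraries for a constitutive catalytic gene (blue) beside its inducible counterpart (orange), and for Psme3 (blue) beside Psme1 or Psme2 (orange); bars are single libraries and have no error. Psmb5 lies below Psmb8 in both Control-PyMT libraries and above it in both MYC-PyMT libraries, and per kb Psme3 crosses Psme1 and Psme2 in the same way. Without division by length, Psme3 is above Psme2 in all 4 libraries.

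The regulatory cap rose in 14 of its 17 genes, by 0.50 to 0.96 on the log2 scale. The median over all 17 was 0.64, and none changed as much as 2-fold. Both MYC-PyMT libraries lay above both Control-PyMT libraries in all 17, as in 37.0% of all genes tested. Over those genes 23.3% were called higher. Without limma's variance trend 4 of the 17 were called higher, beside 19.6% of all genes tested. The SD of the change across genes was 0.18 in the cap and 0.34 in the core without Psma8. This describes these genes and was not tested. The shares of all genes called higher with a library left out are those given above. Leaving out single libraries moved the count of 14 to 15, 6, 5 and 3 without Control-PyMT replicates 1 and 2 and MYC-PyMT replicates 1 and 2 in turn.

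The ATPase ring of the base is made of Psmc1 to Psmc6, which had changes within a range of 0.41 to 0.67 on the log2 scale. Psmc4 had the largest change, with 3751 and 3109.5 scaled counts in the controls and 5272 and 5635 in the MYC-PyMT libraries (log2 change 0.67, SE 0.19, limma adjusted p = 0.0139). Psmc1 had 4859 and 3782 scaled counts in the controls and 6703 and 6061 in the MYC-PyMT libraries (log2 change 0.57, limma adjusted p = 0.0353). Psmc5 had 5013 and 4006 scaled counts in the controls and 6466 and 6718 in the MYC-PyMT libraries (log2 change 0.56, limma adjusted p = 0.035). Both lay above their controls in each MYC-PyMT library. Psmc2 had 4584 and 3679 scaled counts in the controls and 6202 and 5642 in the MYC-PyMT libraries and lay close to the threshold (log2 change 0.53, limma adjusted p = 0.0446). Psmc6 had 6093 and 4287 scaled counts in the controls and 6697 and 7831 in the MYC-PyMT libraries, and its log2 change of 0.50 did not pass (limma adjusted p = 0.0797). Psmc3 had 7741 and 6280.2 scaled counts in the controls and 9086 and 9487 in the MYC-PyMT libraries and did not pass either (log2 change 0.41, limma adjusted p = 0.0998). In Psmc6 the controls differed from each other by more than MYC-PyMT replicate 1 differed from Control-PyMT replicate 1. Both genes passed without Control-PyMT replicate 1. No ATPase kept its call under all alternatives.

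Of the other base subunits, Psmd2, a large scaffold that docks ubiquitin carriers, had 8185 and 6781 scaled counts in the controls and 12593 and 12296 in the MYC-PyMT libraries (log2 change 0.74, SE 0.19, limma adjusted p = 0.00978). Its call ended without either MYC-PyMT library. Psmd4, a receptor for ubiquitin chains, had 4201 and 3784 scaled counts in the controls and 5905 and 6496 in the MYC-PyMT libraries (log2 change 0.64, SE 0.18, limma adjusted p = 0.016). Psmd1, the other scaffold of the base, had 5345 and 4413 scaled counts in the controls and 6069 and 5717 in the MYC-PyMT libraries, the smallest change of the cap (log2 0.28, limma adjusted p = 0.244, not passed). It shares exon bases on the same strand with the gene model Gm21972, so its reads may be divided.

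All 8 lid subunits rose, with a median log2 change of 0.69. Psmd14, the deubiquitinase that cuts the chain from the substrate, had scaled counts of 4244 and 3061 in replicates 1 and 2 of Control-PyMT and of 6244 and 7200.3 in those of MYC-PyMT (log2 change 0.90, SE 0.21, limma adjusted p = 0.00626). Its partner in that enzyme module, Psmd7, had 6841 and 5682 scaled counts in the controls and 11191 and 12868 in the MYC-PyMT libraries (log2 change 0.94, SE 0.19, limma adjusted p = 0.00308). Psmd3, a structural lid subunit, had 4380.5 and 5229.5 scaled counts in the controls and 8833 and 9881 in the MYC-PyMT libraries (log2 change 0.96, SE 0.19, limma adjusted p = 0.0024). In these genes the lower MYC-PyMT library stood clear of the higher Control-PyMT library, and the calls held under all 16 alternatives. Psmd3 was 1 of 3 members in which Control-PyMT replicate 2 was above replicate 1. The remaining lid genes had log2 changes of 0.50 to 0.69. Psmd13 had 4330.0 and 3568 scaled counts in the controls and 5644 and 7155 in the MYC-PyMT libraries (log2 change 0.69). Psmd8 had 7642 and 5777 scaled counts in the controls and 9644 and 11731 in the MYC-PyMT libraries (0.68). Psmd12 had 4998 and 3581 scaled counts in the controls and 6542 and 6996 in the MYC-PyMT libraries (0.68). These are structural subunits, as are the remaining lid genes, and in each replicate 1 of the controls was the higher control. Psmd6 had 3173 and 2391 scaled counts in the controls and 4049.6 and 4529.8 in the MYC-PyMT libraries and a log2 change of 0.64. In Psmd11 the controls were almost equal, with 2800.0 and 2776 scaled counts in the controls and 3850.4 and 4043 in the MYC-PyMT libraries (log2 change 0.50). The calls of these 5 ended when replicate 2 of either group was left out.

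The activators split. Psme1 and Psme2 encode the subunits of the interferon-inducible activator PA28 alpha-beta, and Psme3 encodes PA28 gamma, a nuclear activator that opens the core for degradation without ubiquitin. Psme3 (ENSMUSG00000078652.9, chromosome 11, 101316213 to 101323537, plus strand) had scaled counts of 4719.9 and 4302 in replicates 1 and 2 of Control-PyMT and of 10198 and 11432 in those of MYC-PyMT. It rose 2.4-fold, from 4511 ± 296 to 10815 ± 873 (SD, n = 2 each; log2 change 1.26, SE 0.18, limma adjusted p = 4.43e-04), and kept its call under all 16 alternatives. Psme1 (ENSMUSG00000022216.16, chromosome 14, 55578123 to 55581529, plus strand) had scaled counts of 5317 and 5072 in replicates 1 and 2 of Control-PyMT and of 2854 and 3588 in those of MYC-PyMT. It fell from 5194 ± 173 to 3221 ± 519 (log2 change -0.70, SE 0.19, limma adjusted p = 0.0131), with no overlap between the groups. That call ended without MYC-PyMT replicate 1 (log2 -0.53, limma adjusted p = 0.188) and without the variance trend (adjusted p = 0.0546 by limma). Psme2, which lies near Psme1 on chromosome 14 (55587441 to 55591113), had 3657 and 2743 scaled counts in the controls and 2304 and 2466 in the MYC-PyMT libraries, below both controls in both MYC-PyMT libraries. Its log2 change of -0.41 did not pass (limma adjusted p = 0.118). It passed without Control-PyMT replicate 2 (-0.62, adjusted p = 0.0317 by limma) and with the length trend removed (-0.82, limma adjusted p = 0.00647). Psme2 has a close copy, Psme2b, with which reads may be shared.

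Per kb of transcript, the ratio of Psme3 to Psme1 was 0.371 and 0.354 in replicates 1 and 2 of Control-PyMT and 1.49 and 1.33 in those of MYC-PyMT. The ratio to Psme2 was 0.466 and 0.566, then 1.6 and 1.67. Per kb, PA28 gamma RNA was thus below that of either inducible subunit in both Control-PyMT libraries and above it in both MYC-PyMT libraries. For Psme2 this order rests on the division by length. In undivided scaled counts, Psme3 was already above Psme2 in the controls (4719.9 and 4302 against 3656.6 and 2742.6). Against Psme1 the order changed on both scales. Among 9 genes of the inducible proteasome and interferon-induced antigen processing, fixed as a list, 8 fell and Psmb10 did not pass (median log2 change -1.84). The share called lower over all genes tested was 24.6%. Tap1, a subunit of the peptide transporter, had 2072 and 2366 scaled counts in the controls and 625 and 614 in the MYC-PyMT libraries. The fall of Psme1 was smaller than those of the 8 genes, whose log2 changes ranged from -2.72 to -1.45, a difference that was not tested. The part of interferon response in the change of Psme1 was not tested.

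The start regions of these activators, which moved in opposite directions, are shown with matches in capitals (RefSeq, GRCm38.p6, both on the plus strand, 250 bases before to 50 after the start, 5′ to 3′). In Psme3 (chr11:101315963-101316262) the capitals mark CACGTG, the E-box that MYC and MAX bind, at position -44. They also mark ATTGG, the CCAAT box on the reverse strand. In Psme1 (chr14:55578244-55578543) they mark a match on the reverse strand to the core of the interferon-stimulated response element, at position 10. This last motif was added after the values had been seen, and it was also in the windows of Psmb3, Psmd4, Psmd9 and Psmg4, which were called higher. The E-box was in 8.33% of the members with a window, against 8.09% of all genes with a window. Whether either motif has a part in these changes was not tested.
Psme3: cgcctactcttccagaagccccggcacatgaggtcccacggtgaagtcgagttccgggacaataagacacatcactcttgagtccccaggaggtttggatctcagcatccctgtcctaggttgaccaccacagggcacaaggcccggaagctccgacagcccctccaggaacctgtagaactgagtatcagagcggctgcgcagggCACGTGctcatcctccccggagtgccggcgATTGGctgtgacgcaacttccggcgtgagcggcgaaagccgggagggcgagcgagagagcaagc
Psme1: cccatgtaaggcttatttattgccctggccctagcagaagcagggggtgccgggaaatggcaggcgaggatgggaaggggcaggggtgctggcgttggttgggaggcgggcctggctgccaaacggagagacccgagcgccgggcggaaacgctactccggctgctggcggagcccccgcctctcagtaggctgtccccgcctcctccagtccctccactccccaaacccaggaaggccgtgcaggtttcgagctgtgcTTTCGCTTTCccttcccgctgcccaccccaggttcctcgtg
No E-box was found in the Psme1 window and no interferon-stimulated response element core in the Psme3 window, which says only that these letters are not there.

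The last activator and PI31 did not pass. Psme4, which encodes PA200, a large nuclear activator, had 7423 and 6098 scaled counts in the controls and 8273 and 9214 in the MYC-PyMT libraries (log2 change 0.38, limma adjusted p = 0.132). With the length trend removed its change was 0.70 (limma adjusted p = 0.0174). Psmf1, the gene of PI31, a protein first known as a proteasome inhibitor in the test tube, had 1067 and 1129.7 scaled counts in the controls and 1349.5 and 1096 in the MYC-PyMT libraries, and the groups overlapped (log2 change 0.15, limma adjusted p = 0.57).

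Of the 7 assembly chaperones 5 rose. Psmg1 to Psmg4 (PAC1 to PAC4) guide the alpha ring of the core, and all 4 rose by more than 2-fold, which 9 of the 44 genes and 14.4% of all genes tested did. Psmg3 (ENSMUSG00000029551.13, chromosome 5, 139823592 to 139826885, minus strand) had scaled counts of 603 and 577 in replicates 1 and 2 of Control-PyMT and of 1955 and 2347 in those of MYC-PyMT. It rose 3.65-fold (log2 change 1.86, SE 0.20, limma adjusted p = 8.55e-05), the largest change of the 44, and 3.65% of genes tested had a larger one. Psmg3 shares exon bases with the gene model Gm26938 on its own strand, so its reads may be divided. Psmg1 (ENSMUSG00000022913.14, chromosome 16, 95979933 to 95990960, minus strand) had scaled counts of 863 and 729 in replicates 1 and 2 of Control-PyMT and of 2485 and 2565 in those of MYC-PyMT, a rise from 796 ± 95.1 to 2525 ± 56.7 (SD, n = 2 each; log2 change 1.67, SE 0.19, limma adjusted p = 1.28e-04). Control-PyMT values lay close together, and both MYC-PyMT values were far above them.

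The promoter of Psmg1, whose product pairs with that of Psmg2, is shown for its match to the palindrome of nuclear respiratory factor 1, at position 34 (RefSeq, GRCm38.p6, chr16:95990911-95991210, minus strand, 5′ to 3′). The capitals further left mark TTCNNNGAA, the STAT dimer site, at position -243, a motif added after the values had been seen.
Psmg1: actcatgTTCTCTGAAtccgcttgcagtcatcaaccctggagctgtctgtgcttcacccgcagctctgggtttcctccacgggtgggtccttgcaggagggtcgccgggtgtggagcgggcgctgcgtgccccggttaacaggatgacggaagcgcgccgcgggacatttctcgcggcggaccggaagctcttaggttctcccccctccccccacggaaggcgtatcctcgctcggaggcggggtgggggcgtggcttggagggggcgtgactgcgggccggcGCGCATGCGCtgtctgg
The window held no E-box.

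Psmg2 had 780.0 and 646 scaled counts in the controls and 1793 and 1598 in the MYC-PyMT libraries (log2 change 1.25, SE 0.20, limma adjusted p = 8.38e-04). Psmg4, partner of Psmg3, had 296 and 308 scaled counts in the controls and 717 and 1082 in the MYC-PyMT libraries (log2 change 1.54, SE 0.25, limma adjusted p = 8.98e-04), and its MYC-PyMT libraries differed from each other by a larger ratio than those of the other Psmg genes. The 4 calls held under all 16 alternatives. The 3 chaperones of the ATPase base had log2 changes below those of the 4 Psmg genes, a difference that was not tested. Psmd5 had 3489 and 2692 scaled counts in the controls and 3016 and 3036 in the MYC-PyMT libraries. Psmd10 (gankyrin) had 1686 and 1145 scaled counts in the controls and 1438 and 1466 in the MYC-PyMT libraries. In both genes the MYC-PyMT libraries lay between the controls, and the log2 changes were -0.02 and 0.06, neither of which passed (limma adjusted p = 0.949 and 0.837). Psmd9, the other chaperone of the base, had 1209 and 1134 scaled counts in the controls and 1577 and 1914 in the MYC-PyMT libraries (log2 change 0.57, SE 0.20, limma adjusted p = 0.0357). That call ended without any 1 of the 4 libraries, under upper-quartile scaling, without the variance trend and with the replicate number as a block.

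Levels were compared across roles per kb of transcript in each library. The mean of the 4 Psmg chaperones was 14.6% and 17.4% of the mean of the 14 ubiquitous core subunits in replicates 1 and 2 of Control-PyMT and 27.0% and 27.3% in those of MYC-PyMT. The ratio of core to cap means was 1.67 and 1.56 in the controls and 1.81 and 1.86 in the MYC-PyMT libraries. Psma7 weighs on the core mean, at 11937 and 8945 per kb in the controls and 24093 and 27928 in MYC-PyMT. Core medians per kb were 4464, 3176, 5880 and 6670 in the same library order, and cap medians 2727, 2159, 4051.6 and 3913.5. The ratio of these medians overlapped between the groups. The 44 genes together held 0.660% and 0.566% of all scaled counts in the controls and 0.791% and 0.853% in MYC-PyMT. The ratios of means and the shares of scaled counts did not overlap between the groups. With 2 libraries a group, none of these ratios was tested. The 8 genes of a cell division list summed to 20706 and 17079.9 scaled counts in the controls and 58099 and 56442 in MYC-PyMT. All 8 rose, beside 23.3% of all genes tested called higher. The part of this list in the changes of the proteasome genes was not tested.

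Proteasome genes outside the naming rule were described from fixed lists. Of 5 subunit and assembly genes (Paaf1 was not analysed here) 3 rose, with a list median of 0.57 on the log2 scale. Over all genes tested, 23.3% were called higher. Adrm1, a ubiquitin receptor of the cap, had 1115 and 1818 scaled counts in the controls and 2369 and 3012 in the MYC-PyMT libraries (log2 change 0.91). Shfm1, now named Sem1, a small lid subunit, had 3767 and 3412 scaled counts in the controls and 4816 and 5865 in the MYC-PyMT libraries (0.57). Pomp, the chaperone that completes the beta ring, had 5491 and 4023 scaled counts in the controls and 7364 and 7578 in the MYC-PyMT libraries (0.67). These changes were of the size seen in cap and core genes, and that of Pomp was below those of Psmg1 to Psmg4.

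Of 14 genes of deubiquitinases, ubiquitin carriers and other proteins linked to the proteasome, 6 rose and none fell (median log2 change 0.48). Uchl5, a deubiquitinase held on the cap by Adrm1, had 2335 and 1682 scaled counts in the controls and 6099.6 and 6978 in the MYC-PyMT libraries (log2 change 1.72, SE 0.21, limma adjusted p = 1.76e-04), a larger change than any core or cap gene of the 44. Usp14, the other deubiquitinase that visits the cap, had 4043 and 3212 scaled counts in the controls and 6666 and 6700.3 in the MYC-PyMT libraries (0.89 on the log2 scale). The carrier Rad23b had 8272 and 7180.5 scaled counts in the controls and 12947 and 12811 in the MYC-PyMT libraries (0.74). Of 9 genes of the p97 unfoldase and its cofactors 3 rose: Faf1 (0.87), Ubxn1 (0.57) and Nsfl1c (0.51). Beside this list and the 14 genes above, the share called higher over all genes tested was 23.3%. Vcp, p97 itself, had 8122 and 7434 scaled counts in the controls and 9360.2 and 9010.2 in the MYC-PyMT libraries and did not pass (limma adjusted p = 0.297).

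NFE2L1, NFE2L2 and the enzymes that activate NFE2L1 control proteasome genes in other settings. Nfe2l1 had 11012 and 12648 scaled counts in the controls and 9467 and 9724 in the MYC-PyMT libraries, with both MYC-PyMT libraries below both controls (log2 change -0.30, limma adjusted p = 0.211, not passed). Nfe2l2 had 3317 and 2828 scaled counts in the controls and 4269 and 5048 in the MYC-PyMT libraries and rose (log2 change 0.60, SE 0.19, limma adjusted p = 0.0258). Nfe2l3, a related factor, had 1689.9 and 1278 scaled counts in the controls and 445 and 847 in the MYC-PyMT libraries and fell (log2 change -1.26, SE 0.30, limma adjusted p = 0.00674). Nfe2l2 and Nfe2l3 were the 2 of the 9 genes of this list that passed, beside 23.3% of all genes tested called higher and 24.6% lower. Rps27a, which encodes ubiquitin fused to a ribosomal protein, had 24622 and 16226 scaled counts in the controls and 54753 and 65659 in the MYC-PyMT libraries and rose (log2 change 1.58, SE 0.25, limma adjusted p = 7.70e-04).

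Promoter windows of 300 bases were given for 36 of the 44 genes (RefSeq, GRCm38.p6) and searched on both strands, counting a gene once over all its windows. CACGTG, the E-box, was in 3 of 36 (8.33%: Psma4, Psmd9 and Psme3), against 8.09% of all genes with a window. TGACNNNGC was in 6 (16.7%) against 14.0%, and CCAAT in 12 (33.3%) against 41.1%. The palindrome of nuclear respiratory factor 1 was in 7 (19.4%: Psma2, Psma3, Psma4, Psmc4, Psmc5, Psmd14 and Psmg1) against 5.19%. Of the motifs added later, the core of the interferon-stimulated response element was in 5 (13.9%: Psmb3, Psmd4, Psmd9, Psme1 and Psmg4) against 3.99% and TTCNNNGAA in 2 (5.56%) against 9.55%. In these windows no match to 1 motif overlapped a match to another. The comparison set was all 27025 genes with a window, whether or not tested here, and was not matched to the members for GC content. The counts describe letters and not binding. The genes without a window were Psma8, Psmb1, Psmb2, Psmb7, Psmc3, Psmd3, Psmd7 and Psmg2.

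The tissue label was checked against 9 luminal epithelial markers. None was at 0 in either group, and their summed level was 145779 and 142559 scaled counts in the controls and 118979 and 125810.0 in the MYC-PyMT libraries, with 3 of the 9 lower, none higher and 6 not passed. Markers of neutrophils, the cells in which S100a8 is strongest, had summed levels of 3223 and 1068 against 2761 and 3994 (3 of 7 higher, none lower), and dendritic cell and MHC class II markers 30765 and 38629 against 3441 and 3467 (5 of 6 tested lower). Called higher and lower were 1 and 1 of 7 macrophage, 1 and 1 of 4 B cell, 1 and 2 of 6 fibroblast, 3 and 1 of 6 endothelial, 1 and 1 of 5 adipocyte and 1 and 4 of 6 myoepithelial markers. The shares called higher and lower over all genes tested were 23.3% and 24.6%. The part of these cell types in the proteasome changes was not tested. Exons of Psma4, Psma5, Psmb7, Psmc3, Psmd3, Psmd13 and Psme1 overlap a gene on the opposite strand, whose reads cannot be told apart if strand was not used in counting, and Psmb5 holds a microRNA gene on its own strand. Reads recovered from the scaled counts and summed over all deposited genes ran from 31783846 to 34190913 per library.

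**Figure D4:**
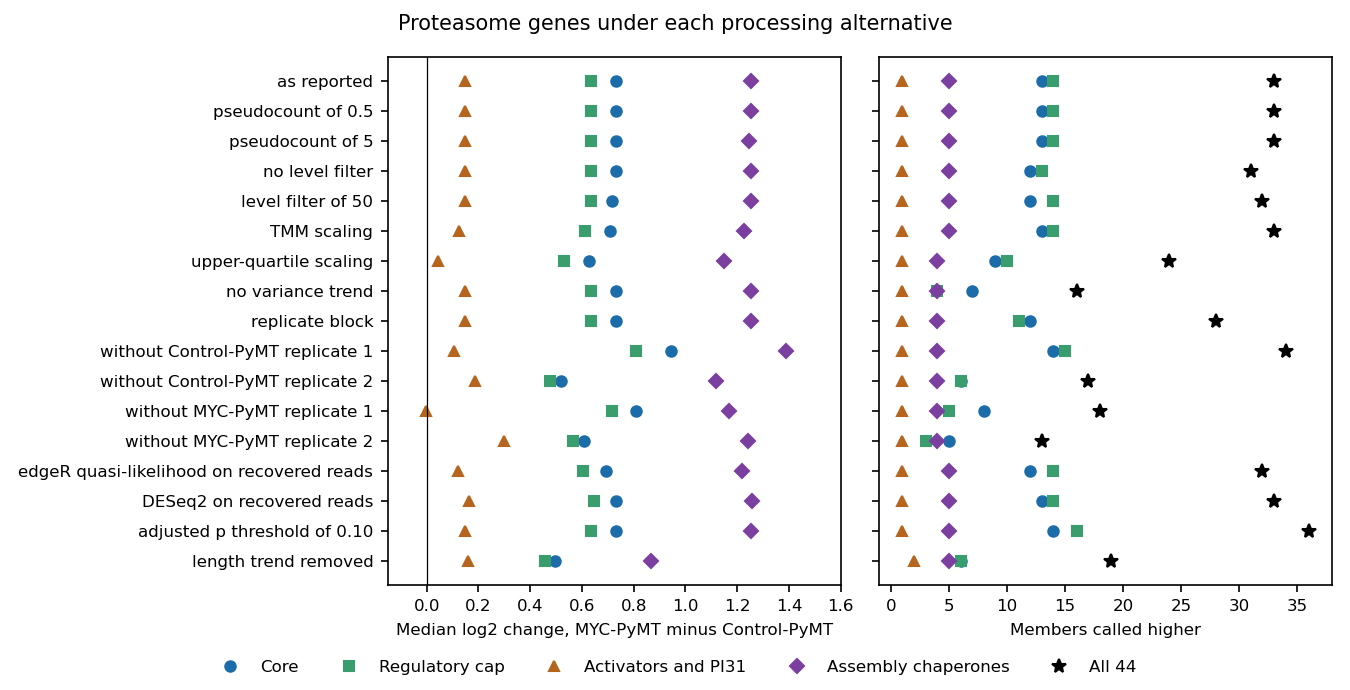
Median log2 change of each role (left) and the number of members called higher (right) for the reported test and 16 processing alternatives; colours and shapes mark the roles and stars all 44 genes. The median of the assembly chaperones runs from 0.87 to 1.39, while the count of members called higher runs from 13 to 36.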

How the data were processed

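Per the labels' protocols, each library was made from 500 ng of tumour RNA (integrity number 3.3 to 9.6, not tied to samples) by poly(A) selection and a stranded TruSeq kit with 8 PCR cycles. HISAT2 and DESeq2 and the builds mm10 and GRCm38.p5 are named per the submitters' processing notes. Counter and strand setting were not given in the sources used here. The deposited signal is scaled counts: in all 4 columns every value (100%) was a whole multiple of 1 step within 0.001 reads, so the authors' values are reads divided by a size factor, and reads were recovered. Log2(value + 1) was tested with limma 3.58.1 (variance trend, two-sided) over genes with at least 10 in at least 2 libraries, adjusted by Benjamini-Hochberg over 16725 genes. Fold changes on this scale understate changes of low genes. Means are ± SD, and n is 2 a group. Transcript lengths (the median of a gene's APPRIS principal transcripts) and coordinates came from GENCODE mouse release 21, in which all 44 genes were found; per-kb levels rest on that length (Psma3, with a long annotated transcript, comes out lowest). Alternatives were run with the same test, with edgeR 4.0.16 and with DESeq2 1.42.0 on recovered reads. The procedure was also run on simulated counts, which gave every gene the same spread beyond counting noise. They held no shared shift between replicates and no trend with transcript length, so they do not cover those features of these data. Chi-square per degree of freedom between replicates was 54.6 for the controls and 39.7 for MYC-PyMT, more than counting noise gives. All members were named by role, and from each other list up to 3 genes a direction by smallest p plus Adrm1, Sem1 and Pomp. Psmb10, Nfe2l1 and Vcp were added for their roles, with their values known. The result for 1 listed gene is not reported here. The members and lists were chosen with earlier results of these data known. A planned protein comparison was not made here.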

Additional observations from a re-analysis of the deposited data

How the results depend on the processing

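The 33 members called higher became 16 without the variance trend (core 7, cap 4) and 19 with the length trend removed (core 6, cap 6, activators and PI31 2). Leaving out 1 library gave 13 to 34 members called higher, with 5 to 14 in the core and 3 to 15 in the cap. The count of lower members, 1 (Psme1, also the count for activators and PI31), was 0 without the variance trend, 2 with the length trend removed, and 0 to 2 when 1 library was left out. Where a group kept 1 library, that library was assumed to vary like the other group. Pseudocounts, level filters, TMM, edgeR (32), DESeq2 (33) and an adjusted p under 0.10 (36) kept these counts within 1.5 times, as did upper-quartile scaling (24), which moved the median change of all genes from -0.018 to -0.12. Among single members, none that passed changed direction. Of those that did not pass, Psmd10 turned to -0.041 under upper-quartile scaling and -0.19 with the length trend removed, and ran from -0.22 (without Control-PyMT replicate 2) to 0.34 when 1 library was left out. Psmd5 turned to 0.17 with the length trend removed and ran from -0.21 to 0.17 (without Control-PyMT replicate 1), and Psmf1 ran from -0.0030 (without MYC-PyMT replicate 1) to 0.30. With the replicate number as a block, 28 members were called higher (background 23.2%); the numbers are not stated to pair libraries, and the difference of replicates 1 and 2 correlated at -0.089 between groups. Depth does not limit members other than Psma8, whose controls had 5 and 6 reads. Beyond these, the cause of the shifts was not tested.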

Other observations

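Copies of proteasome genes that the naming rule does not take in were counted at low levels. Psme2b, a copy of Psme2, had scaled counts of 125 and 73.0 in the controls and of 86.5 and 75.8 in the MYC-PyMT libraries (log2 change -0.24, limma adjusted p = 0.607, not passed). The processed pseudogene Psmb5-ps had scaled counts of 7.48 and 8.49 in the controls and of 13.1 and 8.79 in the MYC-PyMT libraries, far below Psmb5 in each library, and was not tested because of its level.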
